A study of Mus musculus and Homo sapiens with 18 samples.

Results

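The EMX1-sg1 binding sites on human chromosomes 4, 13 and 18 comprised 988 of the 18042 peaks called with that guide in 293FT cells: 575 on chromosome 4, 217 on chromosome 13 and 196 on chromosome 18 (hg19). They were chosen from the deposited peak list by chromosome alone. The peak calls themselves thus chose them, and their numbers, positions, widths and scores are given as a description without a test. These chromosomes are known to hold few genes for their length; gene number was not measured here.

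The study mapped where catalytically inactive Cas9 (dCas9) is held on the genome, by chromatin immunoprecipitation (IP) with an antibody against its HA tag and sequencing. The libraries used were 4 from 293FT cells, a human embryonic kidney line derived from HEK293 whose chromosome copy numbers are not those of a normal cell. The first was transfected with 20 ug of the single guide RNA (sgRNA) EMX1-sg1 and the next with 20 ug of EMX1-sg3, another guide for the same gene, both titled transient; the last pair had no sgRNA (treatment none), with anti-HA for the IP and no antibody for the input. Each group was 1 library of 1 cell line, the labels do not say how dCas9 was supplied to these cells, and the list carries no read counts, so depth is unknown.

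dCas9 searches DNA for a short protospacer-adjacent motif, and pairing of the guide begins in the seed next to it, so that many partly matched sites can hold the protein without being cut. Such sites need DNA that the protein can reach. EMX1, the gene for which the guides were made, encodes a homeobox transcription factor of the developing forebrain and lies on chromosome 2, so none of the sites described here is at the named gene. Chromosomes 13 and 18 are among the gene-poorest human autosomes, and chromosome 4 is gene-poor over most of its length but carries a gene-dense stretch at the tip of its short arm.

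Listed EMX1-sg1 peaks were sparser on chromosomes 13, 18 and 4 than on the 19 other autosomes, but the place of chromosome 13 depended on how many of its numbered peaks were in the list. The density over the span from the first to the last peak of any human list was 2.29 peaks per Mb on chromosome 13 (exact Poisson 95% interval 2.00 to 2.62, 94.64 Mb), 2.53 on chromosome 18 (2.19 to 2.91, 77.35 Mb) and 3.01 on chromosome 4 (2.77 to 3.27, 190.9 Mb). The next autosome, chromosome 3, had 3.14 (2.90 to 3.40), which overlaps the interval of chromosome 4. At the other end, chromosomes 17, 22 and 19 had 20.1, 24.9 and 28.8 peaks per Mb. The median over the 19 other autosomes was 6.03. Together the 3 chromosomes made up 13.1% of the autosomal span and held 5.48% of the list. These intervals cover counting error of 1 library only. Among peaks with a score of at least 100, chromosome 13 moved from the lowest place to rank 7, at 1.34 per Mb, while chromosomes 18 and 4 kept low places with 0.582 and 0.859. Chromosome 3, with 0.810, then ranked below chromosome 4.

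The list holds only part of the running numbers that its peak names carry. On chromosome 13 only 34.5% of the numbers between the first and the last were listed (217 of 629), against 69.5% on chromosome 18 (196 of 282), 68.5% on chromosome 4 (575 of 839) and 69.1% on chromosome 3. Counted by numbers in place of listed peaks, chromosome 13 had 6.65 per Mb and ranked 6 from the lowest of chromosomes 3 to 22. Chromosomes 18 and 4 then had 3.65 and 4.39 and were the lowest, followed by chromosome 3 with 4.55. The place of chromosome 13 thus depended on which count was used, and the rule that decided which numbers were listed is not stated. Chromosomes 12 and 14 had similar shares listed (33.5% and 33.7%). They were denser by both counts, with 6.03 and 6.29 listed peaks per Mb and ranks 15 and 16 by numbers. Chromosome 14 had 18.7 numbers per Mb. How the rule shaped the distances, stretches and shares of neighbours of chromosome 13 was not tested.

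Listed EMX1-sg3 peaks, which the choice of these chromosomes did not use, differed less in density between chromosomes. Chromosome 4 held 56 of them, chromosome 13 held 23 and chromosome 18 held 13. Per Mb this was 0.293 on chromosome 4 (exact Poisson 95% interval 0.222 to 0.381), 0.243 on chromosome 13 (0.154 to 0.365) and 0.168 on chromosome 18 (0.0895 to 0.287), against a median of 0.300 over the 19 other autosomes. Chromosome 18 was the lowest of the 22 autosomes for EMX1-sg3, chromosome 13 ranked 5 from the lowest and chromosome 4 ranked 12. The interval of each of the 3 reached that of chromosome 19, the densest autosome for EMX1-sg1, which had 0.272 (0.156 to 0.442). The 3 chromosomes thus held 11.2% of the autosomal EMX1-sg3 peaks (95% interval 9.11 to 13.5%, by the exact Clopper-Pearson method used for all shares) and 5.58% of the autosomal EMX1-sg1 peaks (5.25 to 5.93%). For each EMX1-sg3 peak there were 9.43 EMX1-sg1 peaks on chromosome 13, 10.3 on chromosome 4 and 15.1 on chromosome 18. The median over the 19 other autosomes was 20.0, with the lowest 11.6 on chromosome 6 and the highest 106 on chromosome 19, so that chromosome 18 ranked 7 of 22. Of the running numbers of EMX1-sg3, 56 of 731 were listed on chromosome 4, 23 of 58 on chromosome 13 and 13 of 54 on chromosome 18. The EMX1-sg3 densities, and the ratios and shares drawn from them, thus hold for listed peaks only. With 1 library for each guide the difference between guides has no replicate check.

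**Figure D1:**
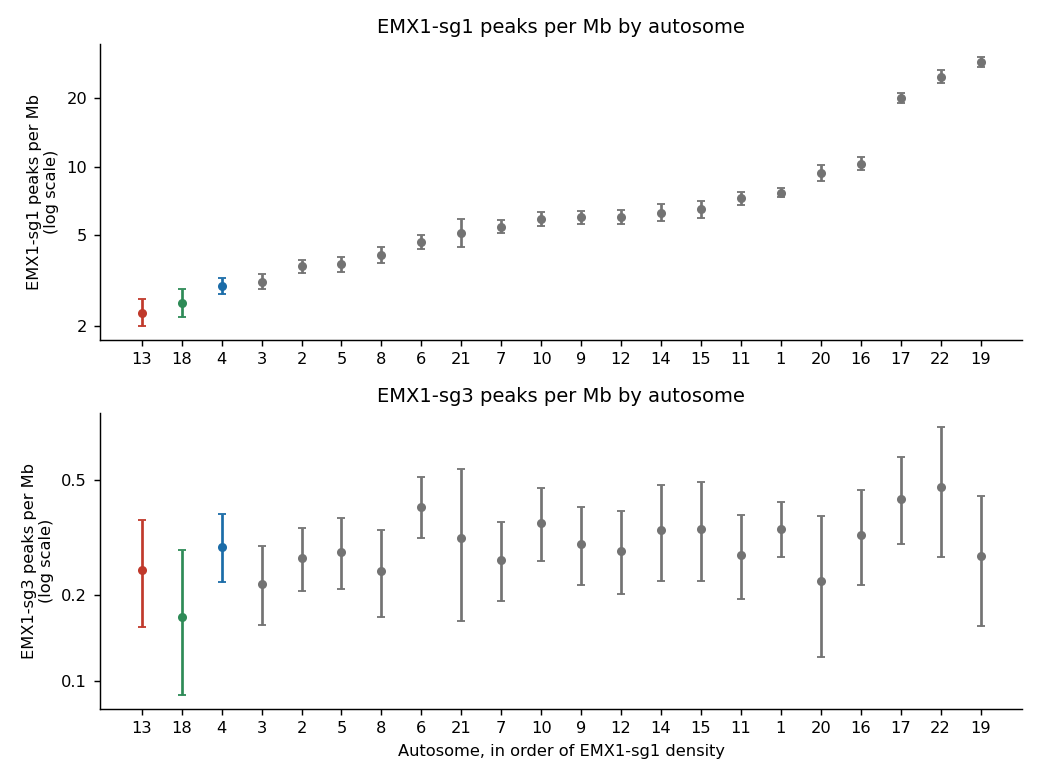
Peaks per Mb (log scale) of EMX1-sg1 (top) and EMX1-sg3 (bottom) for each of 22 autosomes, in order of EMX1-sg1 density; points are 1 library and bars are exact Poisson 95% intervals of the count. Chromosomes 13, 18 and 4 (coloured) are lowest for EMX1-sg1, at 2.29, 2.53 and 3.01, while for EMX1-sg3 their intervals overlap those of most other autosomes.

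On chromosome 4 the sites were crowded into the first 10 Mb. That window held 259 of the 575 peaks (45.0%, 95% interval 40.9 to 49.2%) in 5.17% of the span, a density of 26.2 per Mb (23.1 to 29.6). The rest of the chromosome had 316 peaks, or 1.75 per Mb (1.56 to 1.95). The densest bins of 1 Mb were the one from 1000001 to 2000000 with 63 peaks, the one from 3000001 to 4000000 with 50 and the one from 2000001 to 3000000 with 35. Their median scores, 86.87, 79.08 and 84.36, were near the 79.71 of the whole chromosome. Beyond the first 10 Mb no bin held more than 10 peaks, and the window from 60 to 70 Mb held 3. The window from 180 to 190 Mb, near the other end, held 41.

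Listed EMX1-sg3 peaks were less concentrated in the first 10 Mb of chromosome 4. The window held 7 of 56 (12.5%, 5.18 to 24.1%), a density of 0.709 per Mb against 0.271 in the rest, a ratio of 2.62. For EMX1-sg1 the same ratio was 15.0. Neither control list had a peak in this window. Many EMX1-sg3 numbers were unlisted in it: 51 were skipped between 6020186 and 9704863 and 38 between 1525497 and 2878675. Outside it the largest skip was also 51, between 79708999 and 89084358. The contrast between the guides thus holds for listed peaks only. The first 5 Mb of the chromosome had 35.0 EMX1-sg1 peaks per Mb, 16.7 times the 2.09 of the part more than 5 Mb from either end. Among the 44 autosome ends measured in this way, only the last 5 Mb of chromosome 8 had a higher ratio, 18.6. Ends were counted from the first and the last listed peak of any human list, so some are not ends of the chromosome. The first listed peak started at 22435824 on chromosome 15, for example, and at 5018525 on chromosome 3. Dense ends were found on other autosomes too: over the 38 ends of the other autosomes, counted in that way, the median ratio was 2.46, and 30 of them were above 1.

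On chromosome 13 the densest part was the last 5 Mb. It held 48 of the 217 peaks (22.1%, 16.8 to 28.2%), or 9.60 per Mb, against 1.82 in the interior, a ratio of 5.28. The densest bins were all there, with 14 peaks from 114000001 to 115000000, 12 from 113000001 to 114000000 and 10 from 111000001 to 112000000. Away from that end, windows of 10 Mb held between 11 and 26 peaks, the fewest from 50 to 60 Mb. The first listed peak started at 20436435; the short arm of this acrocentric chromosome is largely absent from the assembly. EMX1-sg3 had 1 of its 23 peaks in the last 5 Mb and 5 in the first 5 Mb, where EMX1-sg1 had 15.

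Chromosome 18 had several small groups of sites rather than 1 crowded end. Its densest bin, from 77000001 to 78000000 at the long-arm end, held 16 peaks, and the next, from 20000001 to 21000000, held 15. The third, from 45000001 to 46000000, held 10. The last 5 Mb had 4.60 peaks per Mb and the first 5 Mb 2.20, against 2.41 between them, so that 1 end was 1.91 times and the other 0.915 times as dense as the interior. The window from 60 to 70 Mb was the emptiest, with 8 peaks. When only listed peaks of the interior were counted, chromosome 13, with its low share of numbers listed, had 1.82 per Mb, the lowest of the 22 autosomes, followed by chromosome 21 with 1.99, chromosome 4 with 2.09 and chromosome 18 with 2.41.

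**Figure D2:**
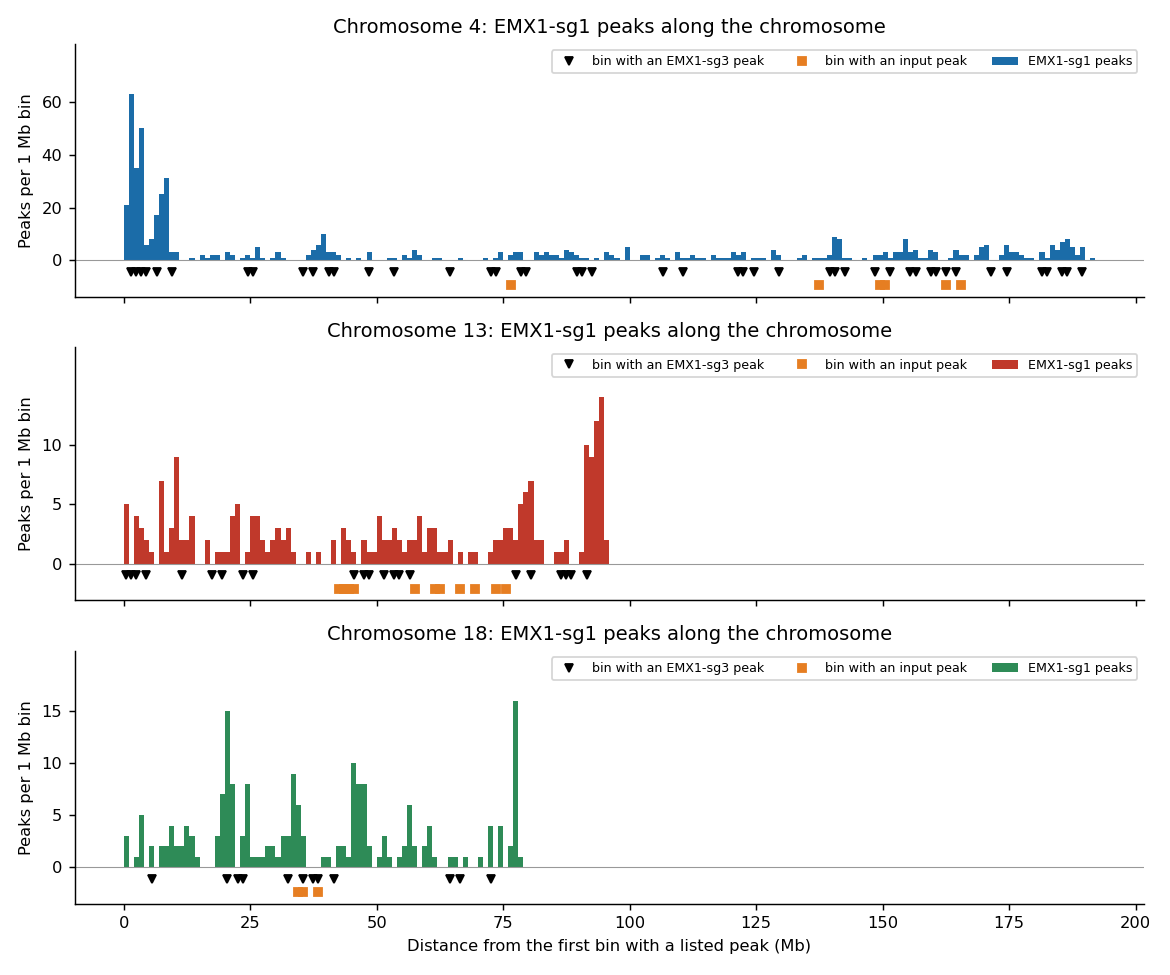
Number of EMX1-sg1 peaks in each 1 Mb bin along chromosomes 4, 13 and 18 (bars), against the distance from the first bin with a listed peak; triangles mark bins with an EMX1-sg3 peak and squares bins with a peak of the no-sgRNA input. Vertical scales differ between panels: the tallest bars are 63, 14 and 16 peaks, and the tall bars of chromosome 4 are all in its first 10 Mb.

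Unevenness along a chromosome was measured by the ratio of variance to mean of the counts in 1 Mb bins, which is about 1 where sites fall independently at an even rate. It was 2.97 on chromosome 13 and 4.15 on chromosome 18, the lowest of the 22 autosomes, with 6.55 on chromosome 2 next. Chromosomes 13 and 18 also had the lowest means per bin, 2.26 and 2.48, and the ratio was not adjusted for the mean. Chromosome 4 had 16.8, above the median of 15.8 over the 19 other autosomes. Over all 3 chromosomes the ratio was 11.3, and it fell to 2.95 when the first 10 Mb of chromosome 4 were left out. Bins without any EMX1-sg1 peak made up 28.1% of the bins of chromosome 4 (54 of 192), 21.9% of chromosome 13 (21 of 96) and 27.8% of chromosome 18 (22 of 79). The median of the 19 other autosomes was 21.5%, and chromosome 9 had 34.5%.

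Long stretches without a peak took up more than 1 in 2 bases of each chromosome. Between successive peaks there were 56 stretches of at least 1 Mb on chromosome 4, 30 on chromosome 13 and 25 on chromosome 18, covering 56.9%, 54.5% and 58.6% of the spans. On the 19 other autosomes pooled, stretches of that size covered 41.9%, and the shares of single autosomes were not compared. Their numbers varied widely. Chromosome 5 had 52 in a span of 180.7 Mb and chromosome 3 had 44 in 192.5 Mb, while the denser chromosome 17 had 5 in 81.11 Mb. Frequent long stretches were thus not particular to chromosomes 4, 13 and 18. The longest on chromosome 4 ran for 5.23 Mb from 66541468 to 71767424, the next for 4.47 Mb from 62069477 to 66541122 and the third for 4.25 Mb from 31998689 to 36245031. The 2 longest adjoin: a single peak lay between them. On chromosome 13 the longest were 3.78 Mb from 58206720 to 61987718, 3.42 Mb from 53426112 to 56848635 and 3.14 Mb from 89091438 to 92228796. On chromosome 18 they were 4.38 Mb from 35154800 to 39534950, 4.18 Mb from 14641704 to 18820855 and 2.98 Mb from 61604278 to 64579759. The stretch from 14641704 holds the centromere of chromosome 18, where the assembly has an unsequenced gap; other gaps of the assembly were not mapped here.

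EMX1-sg3 peaks fell inside these stretches. Of the 92 EMX1-sg3 peaks on the 3 chromosomes, 39 lay in a stretch of at least 1 Mb (42.4%, 32.1 to 53.1%), while the stretches covered 56.7% of the span. By chromosome the numbers were 18 of 56 on chromosome 4, 13 of 23 on chromosome 13 and 8 of 13 on chromosome 18. The strongest EMX1-sg3 peak of the 3 chromosomes, at 37213365 to 37213799 on chromosome 18 (score 515.48, rank 6 of 853), lay in the longest stretch of that chromosome, 2059 kb from the nearest EMX1-sg1 peak. That stretch also held another EMX1-sg3 peak and 2 input peaks. Of the 111 stretches, 75 held no peak of any human list.

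Close neighbours were less frequent than over the whole list. Of the 988 peaks, 243 (24.6%, 21.9 to 27.4%) lay within 10 kb of another EMX1-sg1 peak, against 43.5% of all autosomal peaks of the list. On chromosome 13 it was 27 of 217 (12.4%, 8.36 to 17.6%), on chromosome 18 it was 37 of 196 (18.9%, 13.7 to 25.1%) and on chromosome 4 it was 179 of 575 (31.1%, 27.4 to 35.1%). Chromosomes 13 and 18 had the lowest shares of the 22 autosomes, and chromosome 3 was next with 24.3%. On chromosome 4 the share was 60.6% in the first 10 Mb (157 of 259, 54.4 to 66.6%), near the 59.5% of chromosome 17, and 6.96% in the rest (22 of 316, 4.41 to 10.4%). The median distance from a peak to the next was 179.8 kb on chromosome 13, 148 kb on chromosome 18 and 73.7 kb on chromosome 4. Over the 19 other autosomes it was 27.1 kb when pooled, and the median of their values was 34.5 kb. Chromosome 4 ranked 5 from the largest of the 22 autosomes, behind chromosome 3 with 85.2 kb and chromosome 2 with 78.0 kb.

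Runs of peaks with gaps of at most 10 kb were short outside the tip of chromosome 4. Chromosome 13 had 12 pairs and 1 run of 3, from 114780942 to 114785916, whose scores were between 94.60 and 249.85. Chromosome 18 had 17 pairs and 1 run of 3, from 45929436 to 45937355, with scores between 50.49 and 87.27. Chromosome 4 had 36 pairs and 28 runs of 3 or more, which held 107 peaks. Its longest run had 8 peaks in 35.7 kb, from 1002514 to 1038180, with a median score of 96.36, a lowest of 53.54 and a highest of 157.59. The longest run on any of the other autosomes had 17 peaks, on chromosome 17.

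**Figure D3:**
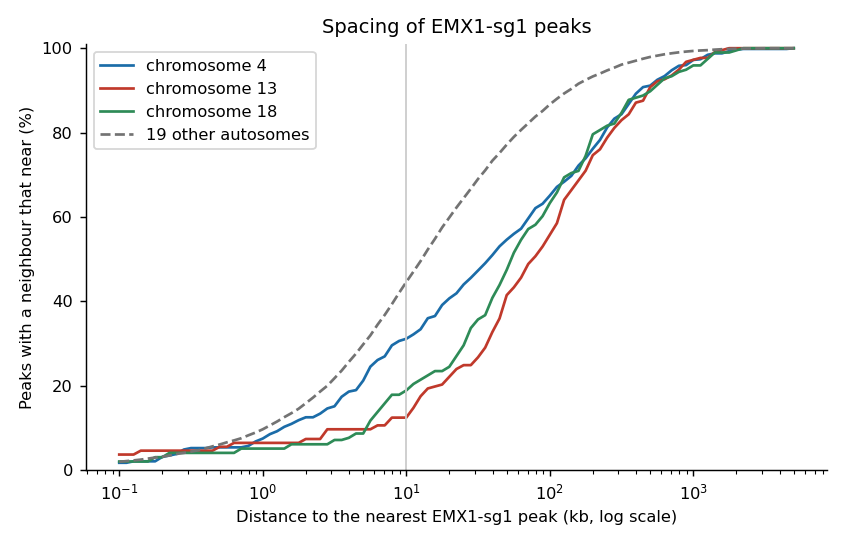
Share of EMX1-sg1 peaks (percent) whose nearest EMX1-sg1 neighbour lies within the distance on the x axis (kb, log scale), for chromosomes 4, 13 and 18 and for the 19 other autosomes pooled; the grey line marks 10 kb. There the curves stand at 31.1%, 12.4%, 18.9% and 44.6%, and those of chromosomes 13 and 18 are the lowest there.

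Peaks of chromosomes 18 and 13 had the lowest median widths of the 22 autosomes, and chromosome 4 ranked 5. The median width was 826.0 bp on chromosome 18, 858.0 bp on chromosome 13 and 939.0 bp on chromosome 4, while the 19 other autosomes ranged from 925.0 bp on chromosome 3 to 1162 bp on chromosome 17 with a median of 1005 bp. The quartiles were wide, from 575.8 to 1608 bp on chromosome 18, 622.0 to 1537 bp on chromosome 13 and 667.0 to 1690 bp on chromosome 4. Of the 988 peaks, 431 were at least 1 kb wide (43.6%, 40.5 to 46.8%), while 52.3% of all autosomal peaks were. On chromosome 4 the first 10 Mb had a median of 1089 bp and the rest 806.5 bp. Peaks with a neighbour within 10 kb had a median of 1129 bp over the 3 chromosomes, and those more than 100 kb from any other had 825.0 bp. The same order held on the 19 other autosomes, with 1138 and 858.5 bp. Covered DNA amounted to 2.71 kb per Mb on chromosome 13, 2.89 on chromosome 18 and 3.90 on chromosome 4. Chromosome 3 lay between them with 3.67, and the median over the 19 other autosomes was 7.72.

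Scores set chromosome 13 apart from the other members. The authors' peak score, whose scale is not stated, had a median of 112.64 on chromosome 13 (quartiles 79.18 and 306.31), 79.71 on chromosome 4 (63.25 and 104.99) and 75.03 on chromosome 18 (60.24 and 97.59). Chromosome 18 had the lowest median of the 22 autosomes, and on chromosome 13 it was exceeded only on chromosomes 12 and 14. Width and score also went together far more closely on chromosome 13. Spearman's rho across peaks was 0.77 there (217 peaks), 0.27 on chromosome 4 (575) and 0.19 on chromosome 18 (196); peaks of 1 library are not independent replicates. The 54 highest-scoring peaks of chromosome 13 had a median width of 2023 bp, against 591.0 bp for the 55 lowest-scoring. For the 49 highest and 49 lowest of chromosome 18 these were 1103 and 795.0 bp.

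**Figure D4:**
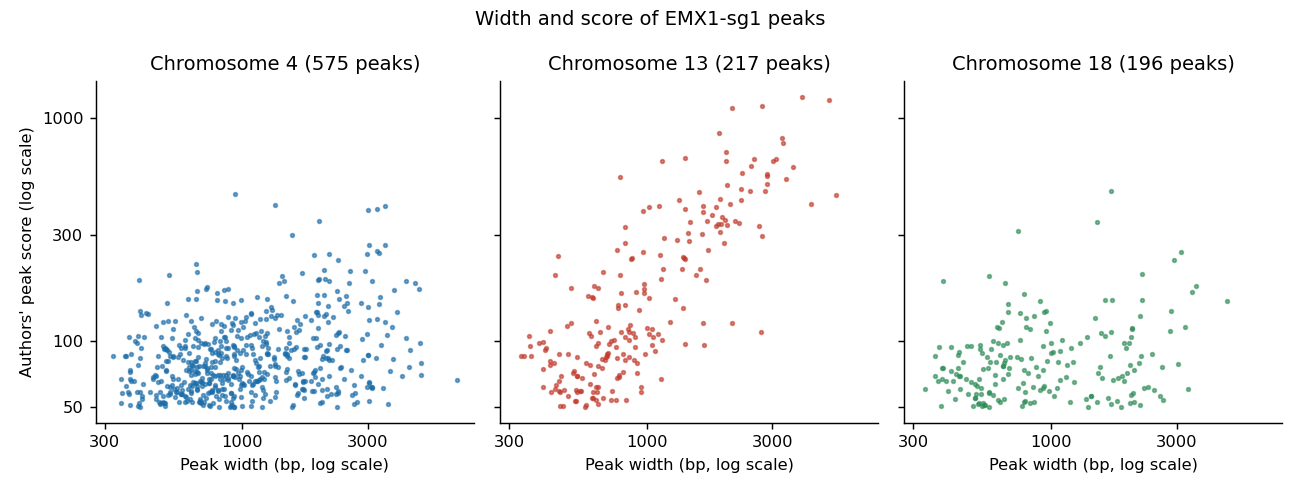
Width (bp) and the authors' score of each EMX1-sg1 peak on chromosomes 4, 13 and 18, both on log scales; each point is 1 peak of 1 library. On chromosome 13 wide peaks score high (Spearman's rho 0.77), whereas on chromosomes 4 and 18 wide peaks occur at all scores (0.27 and 0.19).

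The higher scores of chromosome 13 went with the running numbers in the names of the peaks. On each of the 3 chromosomes these numbers rose with position at every step. They ran from 14344 to 14972 on chromosome 13, from 17564 to 18402 on chromosome 4 and from 11017 to 11298 on chromosome 18. Of the chromosome 13 numbers, 173 also occurred on another chromosome; for chromosome 18 this was 126 and for chromosome 4 it was 0. The numbers of chromosome 13 belonged to a series that began on chromosome 11 at 60114817 with 10007 and ended on chromosome 14 at 104009583 with 16380. In the other 3 parts of that series the median score lay between 131.67 and 148.61, the share of numbers listed between 29.8% and 33.5%, and rho of width and score between 0.79 and 0.81.

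Before the series began, chromosome 11 had a median score of 78.77 and a rho of 0.21, and after it began 148.61 and 0.79. The 13 parts of chromosomes 3 to 22 outside chromosomes 4 and 18 whose numbers belonged neither to this series nor to the one that followed it had medians between 75.35 and 81.28 and rho between 0.21 and 0.42. Chromosome 13 thus had the lowest median within its own series, and chromosome 18 was just below the range of the parts numbered like it. The high scores of chromosome 13 cannot be told apart from its run of numbers, so its scores and widths may not be comparable with those of chromosomes 4 and 18. Median widths did not differ between the series as scores did. They were 965.0 to 1070 bp in the other 3 parts of its series and 925.0 to 1194 bp in the 13 parts named above. Chromosome 13, with 858.0 bp, was below both ranges. Whether its widths can be compared was not tested.

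**Figure D5:**
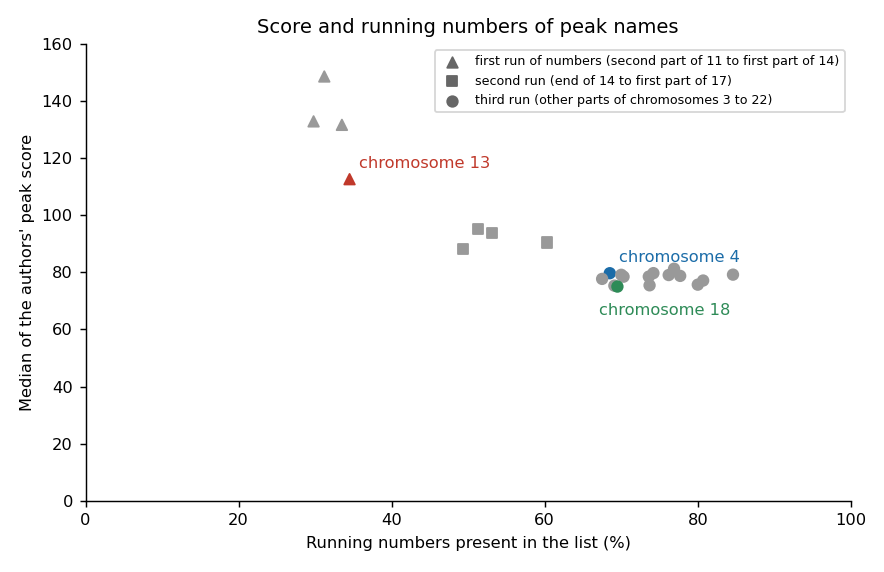
Median score of the authors for each chromosome, or part of a chromosome, from 3 to 22, against the percent of running numbers in its range that are in the list; marker shapes give the 3 runs of numbers. Chromosome 13 lies with its run (34.5%, 112.64), and chromosomes 4 and 18 lie with the third run (68.5% and 79.71, 69.5% and 75.03).

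Against the controls, the shares of high scores differed between the members in the same way. The highest score of the no-sgRNA IP, 90.91, was exceeded by 65.0% of the peaks of chromosome 13 (141 of 217, 58.2 to 71.3%), 37.9% of chromosome 4 (218 of 575, 33.9 to 42.0%) and 32.1% of chromosome 18 (63 of 196, 25.7 to 39.2%), with 44.2% over all autosomal peaks. The highest score of the input, 231.35, was exceeded by 72 peaks of chromosome 13 (33.2%), 14 of chromosome 4 (2.43%) and 4 of chromosome 18 (2.04%), with 7.67% over all autosomal peaks. In the other parts of the series of chromosome 13 that share was 30.8 to 31.8%. The lists may not share a scale of scores, as read depth is unknown.

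The strongest sites of chromosome 13 were among the strongest of the whole list. The peak at 72438062 to 72441953 scored 1255.10 and ranked 13 of 18042. It was followed by 74706082 to 74710999 (1211.53, rank 15), 76054510 to 76057249 (1143.85, rank 18), 77899619 to 77901720 (1118.76, rank 22) and 77600178 to 77602061 (858.89, rank 69). The nearest EMX1-sg1 peak was between 68.0 and 298 kb away from each of the 5. Of the 100 strongest peaks of the list 7 were on chromosome 13 and 0 on chromosomes 4 and 18, a count that rests on the scores just described.

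On chromosome 4 the highest score, 455.49 (rank 430), was not in the crowded tip but at 186702447 to 186703380, 49.2 kb from its nearest neighbour. The other 4 of the 5 strongest were all in the first 10 Mb: 8790107 to 8791441 (407.51), 1579948 to 1583421 (401.56), 6200033 to 6203280 (391.19) and 3781738 to 3784738 (388.36). Over the whole chromosome 4, however, the median score in the first 10 Mb was 81.55 and in the rest 79.37, so that the crowding was not matched by higher scores.

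The strongest sites of chromosome 18 lay at 77536418 to 77538110 (472.34, rank 401), 10454004 to 10455493 (342.05), 77005395 to 77006144 (311.32), 48721934 to 48725062 (249.85) and 28620608 to 28623533 (230.99). The first and the third were in the densest bin of the chromosome. The others were 36.4, 227 and 352 kb from any other EMX1-sg1 peak.

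The widest peaks of chromosome 4 had ordinary scores, and those of chromosomes 13 and 18 had high ones. On chromosome 4 the widest, 6511 bp at 30718593 to 30725103, scored 66.65, and the next, 4780 bp at 187644073 to 187648852, scored 79.53. On chromosome 13 the widest, 5231 bp at 100619454 to 100624684, scored 450.49 (rank 28 of 217), and the next, 4918 bp, was the peak that ranked second by score. On chromosome 18 they were 4653 bp at 20713630 to 20718282 (150.71, rank 17 of 196) and 3567 bp at 46064649 to 46068215 (176.90, rank 10). The lowest scores were alike on all 3: 50.09 at 84255401 to 84256586 and 50.13 at 883186 to 884118 on chromosome 4 (tied with the peak at 40057234 to 40059521), 50.08 at 99328095 to 99328678 and 50.55 at 79664710 to 79665191 on chromosome 13, and 50.07 at 51795404 to 51796790 and 50.22 at 76717081 to 76717662 on chromosome 18. The lowest score of the whole autosomal list was 50.01, and no autosome had a lowest score above the 50.32 of chromosome 12. The list thus stops just above 50 on every autosome, and the likeness of the lowest scores is not a trait of these 3.

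EMX1-sg3 and EMX1-sg1 did not share a listed site on these chromosomes. None of the 92 EMX1-sg3 peaks overlapped an EMX1-sg1 peak. Overlaps would be rare in any case, as EMX1-sg1 peaks covered only 3.37 kb per Mb. Sites left out of either list could not be compared. The nearest pair was 0.132 kb apart on chromosome 4, with EMX1-sg1 at 1523371 to 1524598 (score 124.71) and EMX1-sg3 at 1524731 to 1525496 (289.69, rank 43 of 853); it lay in the densest EMX1-sg1 bin. No other pair was within 1 kb, and 4 of the 92 were within 10 kb. The median distance to the nearest EMX1-sg1 peak was 115 kb on chromosome 4, 275 kb on chromosome 13 and 241 kb on chromosome 18.

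Bins of 1 Mb are a coarser comparison, in which most EMX1-sg3 peaks shared a bin with EMX1-sg1. Of the EMX1-sg3 peaks, 73 of 92 (79.3%, 69.6 to 87.1%) lay in a bin with at least 1 EMX1-sg1 peak, while 73.6% of the bins of the 3 chromosomes held one. Over all autosomes the share of EMX1-sg3 peaks was 87.5%. On the 19 other autosomes it was 88.5%, while 78.2% of their bins held an EMX1-sg1 peak. By chromosome the counts were 47 of 56 on chromosome 4 (83.9%, 71.7 to 92.4%), 18 of 23 on chromosome 13 (78.3%, 56.3 to 92.5%) and 8 of 13 on chromosome 18 (61.5%, 31.6 to 86.1%). The bins with an EMX1-sg1 peak made up 71.9%, 78.1% and 72.2% of these chromosomes, each inside the interval of the share on chromosomes 13 and 18 and near its lower limit on chromosome 4. Bins with more EMX1-sg1 peaks held slightly more EMX1-sg3 peaks: 0.196 per bin where EMX1-sg1 had none (97 bins), 0.236 where it had 1 to 3 (203 bins) and 0.373 where it had more than 3 (67 bins). On chromosome 4 these values were 0.167, 0.283 and 0.531, while on chromosome 18 they were 0.227, 0.125 and 0.176. Across bins Spearman's rho of the 2 counts was 0.25 on chromosome 4 (192 bins), 0.06 on chromosome 13 (96 bins) and -0.03 on chromosome 18 (79 bins), and Pearson's r was 0.22, 0.01 and 0.03. On the 19 other autosomes rho was 0.20 over 2431 bins. Bins share mappability, base composition and the cell line, and most hold 0 or 1 EMX1-sg3 peak, so these weak values are a description only.

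The strongest EMX1-sg3 sites lay at various distances from EMX1-sg1 sites, some above and some below the median distance of their chromosome. On chromosome 4 they were 41936670 to 41938056 (408.51, 461 kb away), the paired site at 1524731, and 89857139 to 89857910 (252.41, 204 kb). On chromosome 18 the peak at 37213365 was followed by 41491640 to 41492272 (265.18, 718 kb away) and 64771816 to 64772484 (180.12, 192 kb). On chromosome 13 the strongest scored only 123.11, at 21566270 to 21566997 (610.0 kb away), with 67693355 to 67694257 (114.71, 125 kb) and 74161291 to 74161706 (113.65, 365 kb) next. High EMX1-sg1 scores on chromosome 13 were thus not accompanied by high EMX1-sg3 scores there: the median of EMX1-sg3 was 74.72 on chromosome 13, 76.03 on chromosome 4 and 95.80 on chromosome 18.

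Listed peaks of the control without antibody were concentrated on chromosome 13, while on chromosomes 4 and 18 the intervals of their shares included the share of the span. Of the 43 autosomal input peaks, 24 were on the 3 chromosomes (55.8%, 39.9 to 70.9%): 15 on chromosome 13, 6 on chromosome 4 and 3 on chromosome 18. Chromosome 13 makes up 3.41% of the autosomal span and held 34.9% of the input peaks (21.0 to 50.9%). All 15 lay between 62467735 and 95444768, which is 34.8% of the span of the chromosome. The strongest was at 65441422 to 65442681 (111.76, rank 2 of 49), followed by 95443858 to 95444768 (88.53) and 82664125 to 82664841 (88.07). The input on chromosome 4 had scores of 50.09 to 58.66, with the peak at 162568829 to 162569385 the highest, and on chromosome 18 the highest was 57.95, at 38523888 to 38524368. The input list also held only part of its running numbers: 15 of 382 on chromosome 13, 6 of 13 on chromosome 4 and 3 of 10 on chromosome 18. On chromosome 13, 141 numbers were skipped between 65567387 and 77293974 and 140 between 62469097 and 63772252. The input shares and the interval of input peaks thus hold for listed peaks only.

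In the interval of input peaks on chromosome 13, EMX1-sg1 had 54 peaks, or 1.64 per Mb (1.23 to 2.14). Outside it had 163, or 2.64 per Mb (2.25 to 3.08), but without the crowded last 5 Mb this was 115 peaks and 2.03 per Mb (1.68 to 2.44), whose interval overlaps that of the inside. The median score was 103.88 inside and 120.34 outside, and 15 of 54 against 57 of 163 were above 231.35. The 5 strongest EMX1-sg1 peaks of chromosome 13 did lie in the interval. No EMX1-sg1 peak overlapped any of the 24 input peaks; the nearest were 5.04 kb apart on chromosome 4 and 28.6 kb apart on chromosome 13. The part of the input signal in the scores of chromosome 13 was not tested.

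The IP without sgRNA had few peaks on these chromosomes: 3 of its 60 autosomal peaks (exact interval of the share 1.04 to 13.9%). They were at 174348594 to 174349029 (score 62.59) and 86374510 to 86375133 (54.95) on chromosome 4 and at 87452571 to 87453251 (55.13) on chromosome 13, and chromosome 18 had 0. The nearest EMX1-sg1 peaks were 110.2, 20.7 and 483 kb away, so that none of the 988 sites coincided with a listed peak of either control. EMX1-sg1 peaks covered only 3.37 kb per Mb of these chromosomes, and unlisted numbers could not be compared. The absence of overlap thus does not set the sites apart from background.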

How the data were processed

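Binding was measured by anti-HA ChIP-seq in 293FT cells; the EMX1-sg1, EMX1-sg3, no-sgRNA IP and no-sgRNA input lists were used, 1 library each, grouped by the labels. Bowtie, with no version, and the build hg19 are named per the submitters' processing notes. Peak names in the deposited lists start with MACS, a peak caller, and the settings used (control library, threshold, filter) were not given in these sources. Each deposited peak has a start, an end and a score made by the authors, whose scale is not stated. A list holds fewer peaks than its running numbers, and no source used here states why numbers are missing. Deposited starts were read as 0-based, and all printed coordinates are 1-based.

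Counts, gaps, runs and bins were computed with Python 3.11.15, numpy 2.4.6, pandas 2.3.3 and scipy 1.17.1, and the functions were tested on simulated data. A peak belongs to the bin of its centre. Chromosome length was the span from the first to the last peak of the 4 lists, as no hg19 sequence or annotation was used. Intervals are 95%, exact Poisson for counts and exact Clopper-Pearson for shares, and cover counting error only. No test between groups was made, with 1 library each. Runs of numbers were split where a number fell or rose by more than 1000, on chromosomes 3 to 22.

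Members and measures were chosen with earlier results of these data known. Positions named on each chromosome were the 5 highest-scoring, 2 widest and 2 lowest-scoring peaks, the 3 longest stretches, the 3 densest bins, the longest run, peaks within 1 kb of another list's peak, the 3 strongest EMX1-sg3 peaks and control peaks; the rule asked for every control peak, and the input is given by its strongest peaks and range. The numbering, the numbers per Mb, the end densities and the input interval were examined after the lists had been seen.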

Additional observations from a re-analysis of the deposited data

How the results depend on the processing

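Over the 3 chromosomes together, the density of 2.72 peaks per Mb became 3.43 per 1 Mb bin with a peak of any human list, 0.926 with a score of at least 100 and 2.06 when chromosome 4 lost its first 10 Mb, an alternative chosen after seeing the data; merging peaks within 500 bp gave 2.65. Chromosomes 13, 18 and 4 stayed the lowest autosomes under merging and per occupied bin, and with a score of at least 100 chromosomes 18 and 4 ranked 1 and 3 and chromosome 13 ranked 7. With running numbers in place of listed peaks, also chosen after seeing the data, chromosomes 18, 4 and 13 had 3.65, 4.39 and 6.65 per Mb. The 111 stretches became 205 from 0.5 Mb and 32 from 2 Mb, as the size asked for changed, and 88 with a score of at least 100. The median width of 910.5 bp became 1343 bp with a score of at least 100 and 826.0 bp without the first 10 Mb of chromosome 4. The median score of 83.72 became 97.63 among peaks at least as wide as the median of the list, and 77.14 without chromosome 13, which was also chosen after seeing the data. The share of peaks with a neighbour within 10 kb, 24.6%, became 16.2% within 5 kb, 50.1% within 50 kb, 15.8% with a score of at least 100, 20.9% after merging and 11.8% without the first 10 Mb of chromosome 4. The ratio of variance to mean, 11.3, became 6.40 in bins of 0.5 Mb, 37.3 in bins of 5 Mb, 4.70 with a score of at least 100 and 2.95 without the first 10 Mb of chromosome 4. The share of EMX1-sg3 peaks in bins with an EMX1-sg1 peak, 79.3%, became 65.2% in bins of 0.5 Mb, 100% in bins of 5 Mb and 58.1% with a score of at least 100 in both lists. The shares of bins with an EMX1-sg1 peak were not computed for these settings. Only 1 stretch without an EMX1-sg1 peak reached 5 Mb, so the 100% left little room for another value. Spearman's rho over bins, 0.15, became 0.28 in bins of 5 Mb, 0.16 in bins with an EMX1-sg1 peak and 0.11 without the first 10 Mb of chromosome 4. Read depth is unknown and each group is 1 library, so no value has a replicate error. No paired analysis was possible because each human group holds 1 library and no test was made.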

Other observations

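The running numbers of the peak names also bear on the stretches without EMX1-sg1 peaks. Of the 111 stretches of at least 1 Mb, 40 lay between peaks with successive numbers: 22 of 56 on chromosome 4, 7 of 30 on chromosome 13 and 11 of 25 on chromosome 18. Among them were the stretch from 62069477 to 66541122 on chromosome 4, the one from 53426112 to 56848635 on chromosome 13 and the one around the centromere of chromosome 18. In all, 71 numbers were skipped in the stretches of chromosome 4, 130 in those of chromosome 13 and 27 in those of chromosome 18. The most in any stretch was 21, on chromosome 13 between 25115646 and 27114276. No source used here states what a skipped number stands for.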
